A study of Mus musculus with 8 samples.

Results

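The 10 genes described here encode the enzymes and cofactors that break down, take up and rebuild triglyceride in brown adipose tissue (BAT). They are Pnpla2, Abhd5, G0s2, Lipe, Mgll, Lpl, Lmf1, Dgat1, Dgat2 and Pnpla3, named by symbol for these roles, and all 10 were found among the 33641 gene names of the deposited data. Interscapular BAT of C57BL/6 mice aged 28 weeks was sequenced as poly(A) RNA, with 1 library for each number in the labels, taken here as an animal. The labels give libraries A7, A8 and A12 as wild type (control, n = 3) and A24, A25, A26, A29 and A31 as *Adipo-HuR-/-* (n = 5). In *Adipo-HuR-/-* mice a floxed Elavl1 gene, which encodes the RNA binding protein HuR, is recombined by Cre under the adiponectin promoter, so cells of BAT other than adipocytes keep HuR. Controls in the study were littermates of several genotypes, some with Cre alone and some with floxed alleles and no Cre, and the labels do not say which genotype each control library had.

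Brown adipocytes store triglyceride in many small droplets and burn the released fatty acids for heat. Inside the cell, adipose triglyceride lipase (ATGL, Pnpla2), hormone-sensitive lipase (HSL, Lipe) and monoglyceride lipase (MGL, Mgll) remove the fatty acids in turn, and diacylglycerol acyltransferases (Dgat1 and Dgat2) put them back. At the capillary wall, lipoprotein lipase (LPL) releases fatty acids from circulating lipoproteins for uptake, and BAT is a major site of this clearance.

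The control libraries held 60622522 (A7), 51751002 (A8) and 50673814 (A12) estimated counts. Those labelled *Adipo-HuR-/-* held 18264754 (A24), 17558090 (A25), 67498055 (A26), 50893173 (A29) and 58727739 (A31). A24 and A25 were thus the shallowest, but even the scarcest of the 10 genes, Lmf1, had at least 619 counts in every library. Levels below are given as CPM, a gene's counts relative to the total of its library, after edgeR's TMM scaling, which adjusts the totals by the bulk of the genes.

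Elavl1, the gene targeted in the model, did not separate the groups. Its level was 50.6 CPM (A7), 48.0 (A8) and 49.2 (A12) under the control label, and 61.9 (A24), 47.3 (A25), 43.4 (A26), 61.3 (A29) and 61.2 (A31) under the *Adipo-HuR-/-* label. Elavl1 was thus not reduced under the *Adipo-HuR-/-* label, and 3 of its 5 libraries were above every control library. Counts of the whole gene include other cells of BAT and any RNA that the recombined allele still makes, so the labels could not be checked in this way and are used as given throughout.

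Each library was rich in brown fat markers. The summed level of the 8 brown adipocyte markers lay between 7596 CPM in A7 and 17615 in A8, and their most abundant gene, Ucp1, lay between 4251 in A25 and 11438 in A8. The 7 general adipocyte markers summed to between 10904 CPM in A25 and 19939 in A8, led by Fabp4. Skeletal muscle markers, 15 genes led by Myh4, summed to 3952 CPM in A7, 2450 in A8 and 432 in A31, and to between 22.7 and 54.7 in the other 5 libraries. Both A7 and A8 are labelled control, so the presence of muscle RNA ran partly with the label, and 2 of the 15 muscle markers were called, both with lower levels under the *Adipo-HuR-/-* label. No gene of the lists for brown adipocytes, adipocytes, white adipocytes, endothelium, macrophages, lymphocytes, fibroblasts, erythroid cells or Schwann cells was called, and Hoxc10 of the white adipocyte list was at 0 in all 8 libraries.

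No lipase, cofactor or acyltransferase gene of the 10 passed the test between the labelled groups. The call required a fold change of at least 1.5 and an adjusted p of at most 0.05 in edgeR's quasi-likelihood test (Benjamini-Hochberg over 14851 genes). Of the members 0 of 10 were called, against 0.707% of all genes tested (105 genes, 36 higher and 69 lower). When total counts alone set the scale, 121 genes were called, 96 higher and 25 lower, and again none of the 10. At an unadjusted p under 0.05 there were 0 of 10 members, against 17.0% of all genes, and the groups of all 10 members overlapped, while they were apart in 11.5% of all genes. DESeq2's Wald test and limma voom with quality weights also called 0 of 10, with 0 and 1 (G0s2) at an unadjusted p under 0.05. On the scale of total counts, where the median of all genes was 0.23, edgeR had 3 (G0s2, Lmf1 and Dgat1). The 17.0% above belongs to the main fit. No such share was taken for these other fits, so their member counts cannot be set beside one. The median log2 fold change of the members was 0.05, beside 0.00098 for all genes tested, with 6 members higher and 4 lower. In whole tissue, a change in the number of adipocytes and a change in RNA per adipocyte cannot be told apart.

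**Figure D1:**
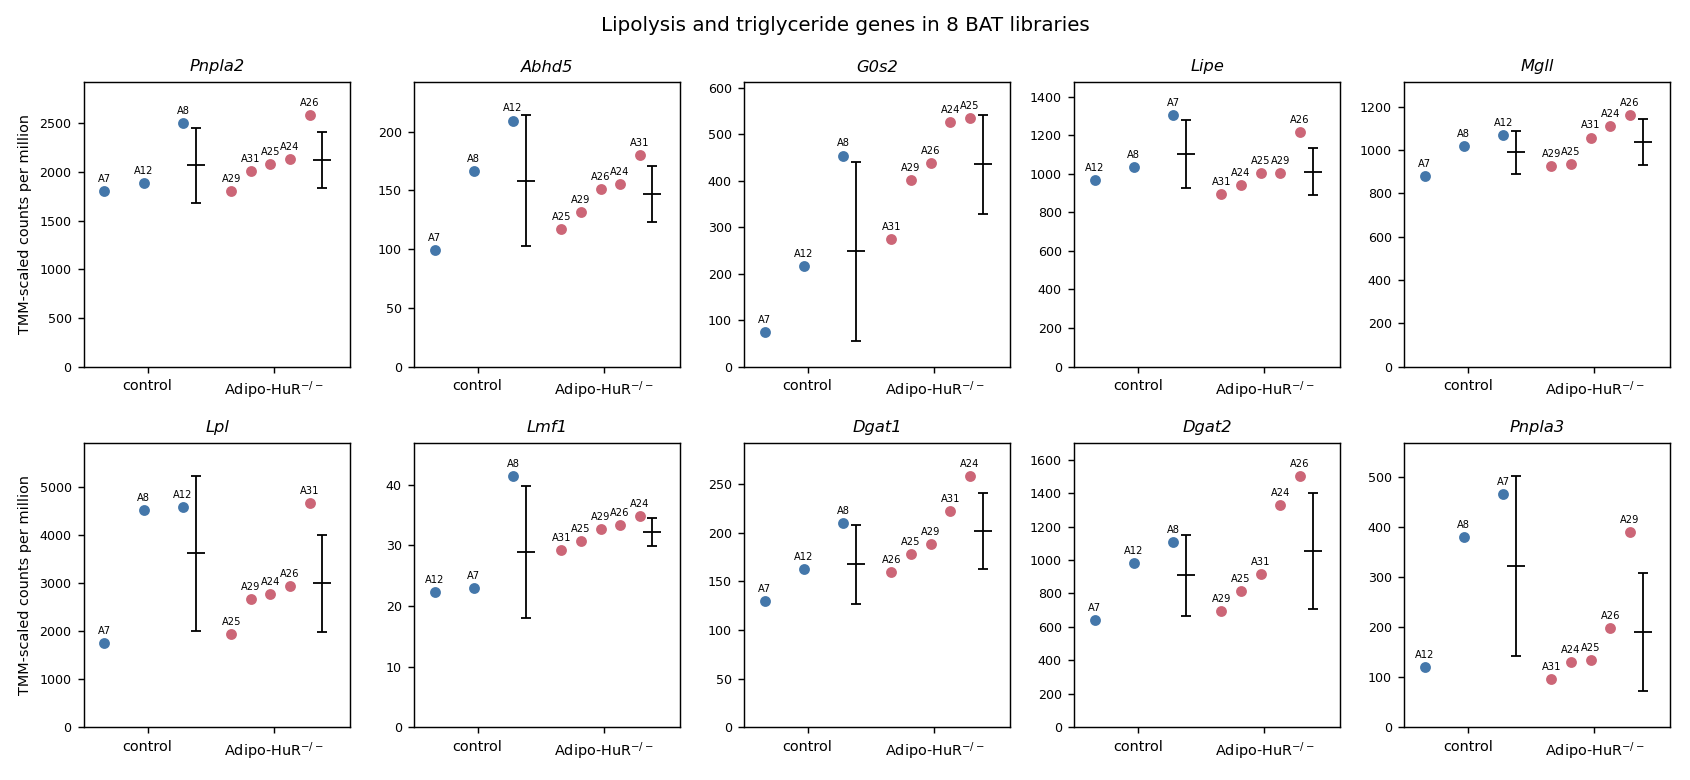
CPM after TMM scaling (vertical axes, from 0) of the 10 genes in each BAT library, by labelled group. Points are libraries with their names, and bars are the mean ± SD of 3 control and 5 *Adipo-HuR-/-* libraries. The groups overlap in every panel, and A7 has the lowest point for 6 of the 10 genes.

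Levels of the 10 genes were compared per kilobase of transcript, averaged over 8 libraries. Pnpla2 was at 1118 ± 157 CPM per kilobase (SD, n = 8), ahead of Lpl at 856 ± 272 and above it in 6 of 8 libraries. Dgat2 (444 ± 134), Lipe (432 ± 62.6) and G0s2 (419 ± 186) followed, at levels that did not differ beyond their spread. Lower down were Mgll (280.4 ± 26.4), Pnpla3 (182 ± 112), Dgat1 (123 ± 32.6) and Abhd5 (84.9 ± 15.8), and Lmf1 was lowest at 17.6 ± 3.89. The order was not fixed in the middle of this range, as Pnpla3 exceeded Dgat1 in 4 of 8 libraries, whereas Lpl exceeded Dgat2, and Abhd5 exceeded Lmf1, in 8 of 8. ATGL mRNA was thus far more abundant than that of its coactivator.

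The members differed in the spread of their log2 CPM over the 8 libraries. Mgll (SD 0.14), Lipe (0.19) and Pnpla2 (0.20) were among the steadier genes of the tissue, since only 3.18%, 9.35% and 12.03% of genes tested had a smaller SD. G0s2 (SD 0.96) and Pnpla3 (0.89) were at the other end, with a smaller SD in 91.9% and 90.2% of genes. Pnpla3 ranged 4.82-fold and G0s2 7.27-fold between the lowest and the highest library, against 1.32-fold for Mgll. The wide range of G0s2 rests largely on A7 (73.7 CPM), as the other 7 libraries lay between 216 (A12) and 536 CPM (A25).

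ATGL, which removes the first fatty acid from triglyceride, had near equal mRNA levels in both groups. Pnpla2 measured 1805 CPM (A7), 2507 (A8) and 1889 (A12) under the control label, and 2138 (A24), 2080.3 (A25), 2586 (A26), 1802 (A29) and 2013 (A31) under the *Adipo-HuR-/-* label. The highest library of each group, A8 and A26, lay close together, as did the lowest, A7 and A29. Means were 2067 ± 383 (SD, n = 3) and 2124 ± 288 (SD, n = 5), a log2 fold change of 0.04 with a standard error (SE) of 0.20 and an adjusted p of 0.942 in edgeR's quasi-likelihood test. The 95% interval of the fold change ran from 0.756 to 1.40 in this fit, and with a score of the skeletal muscle markers as a covariate the log2 fold change was 0.067 with a larger SE of 0.29. The profile of Pnpla2 over the 8 libraries was most like those of Plin5, a droplet coat protein of oxidative tissues, Pdk2, a pyruvate dehydrogenase kinase, and Wdr55. Their centred log2 CPM differed from that of Pnpla2 by a mean of 0.06, 0.07 and 0.08 per library, against a median of 0.26 over 7418 genes.

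ABHD5 (CGI-58) binds ATGL at the droplet and activates it. Abhd5 measured 98.8 CPM (A7), 167 (A8) and 209 (A12) under the control label, and 155 (A24), 117 (A25), 151 (A26), 131 (A29) and 179.9 (A31) under the *Adipo-HuR-/-* label. All 5 libraries labelled *Adipo-HuR-/-* lay between the lowest and the highest control library. Its log2 fold change was −0.11 (SE 0.24), with an adjusted p of 0.858 in edgeR.

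G0S2 inhibits ATGL by binding to it directly, and its mRNA had the largest log2 fold change of the 10 genes in size, just ahead of Pnpla3. G0s2 measured 73.7 CPM (A7), 454 (A8) and 216 (A12) under the control label, and 526 (A24), 536 (A25), 438 (A26), 401 (A29) and 275 (A31) under the *Adipo-HuR-/-* label. A7 was far below all others and A12 next, but A8 was higher than A26, A29 and A31, so the groups overlapped. Means were 248 ± 192 (SD, n = 3) and 435 ± 106 (SD, n = 5), and all 5 libraries labelled *Adipo-HuR-/-* were above the control mean. The log2 fold change of 0.81 (SE 0.47) had an adjusted p of 0.415 in edgeR, and its 95% interval ran from a fold of 0.853 to 3.60. Its size moved with either of 2 control libraries, as it was 0.37 without A7 and 1.59 without A8 (edgeR adjusted p of 0.641 and 0.0944). G0s2 stayed higher in mean under all 18 alternatives tried and was called in none. The genes with the most similar profile, Ccdc107, Polr2f and Tmem41a, still differed from it by a mean of 0.36, 0.36 and 0.38 on the log2 scale, against a median of 0.73.

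Because inhibitor, coactivator and enzyme act together, their counts were also compared within each library, where scaling plays no part. The log2 ratio of G0s2 to Pnpla2 counts was −4.62 (A7), −2.46 (A8) and −3.13 (A12) under the control label, and −2.02 (A24), −1.96 (A25), −2.56 (A26), −2.17 (A29) and −2.87 (A31) under the *Adipo-HuR-/-* label. A7 had the least inhibitor mRNA per ATGL mRNA, and A8 lay among the libraries labelled *Adipo-HuR-/-*. The difference in mean of 1.09 had p = 0.0536 in a two-sided exact permutation test over the 56 ways to divide 8 libraries into 3 and 5, for which the smallest possible p is 0.0179, and 0.375 after Benjamini-Hochberg adjustment over 7 ratios. It was 0.48 without A7. For Abhd5 to Pnpla2 the difference was −0.10 (exact permutation p = 0.768, adjusted p = 1), with ratios between −4.19 in A7 and −3.17 in A12.

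**Figure D2:**
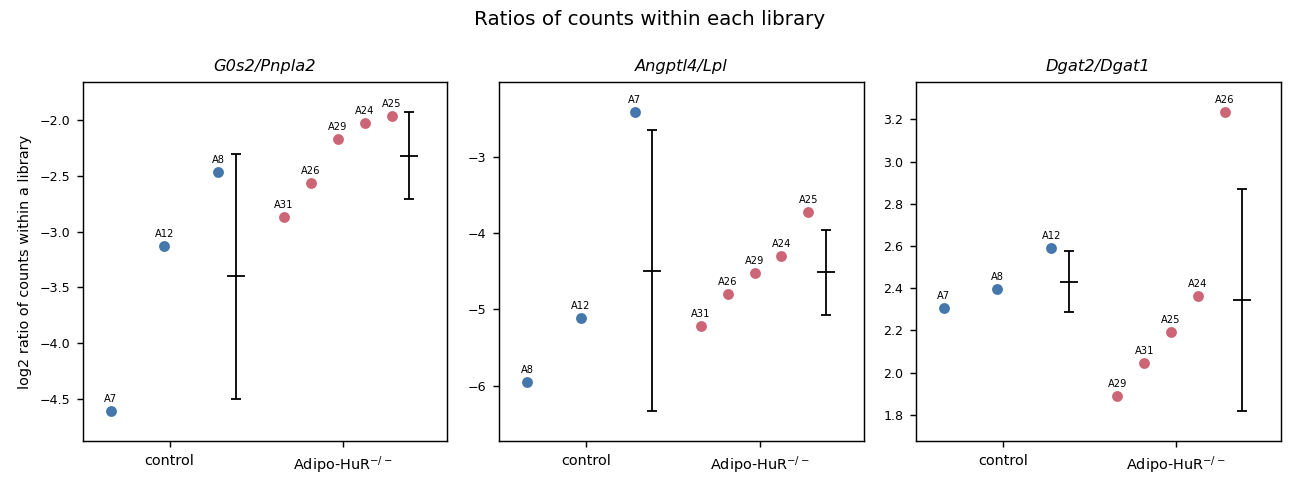
Log2 ratio of counts within each library (vertical axes) for G0s2 over Pnpla2, Angptl4 over Lpl and Dgat2 over Dgat1, by labelled group. Points are libraries with their names, and bars are the mean ± SD of 3 control and 5 *Adipo-HuR-/-* libraries. A7 is lowest for G0s2/Pnpla2 (−4.62) and highest for Angptl4/Lpl (−2.41), and the groups overlap in each panel.

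HSL takes the next fatty acid, from diacylglycerol. Lipe measured 1304 CPM (A7), 1036 (A8) and 969 (A12) under the control label, and 939 (A24), 1003 (A25), 1214 (A26), 1005 (A29) and 895 (A31) under the *Adipo-HuR-/-* label. A7 and A26 were highest, and 1 of the 5 libraries labelled *Adipo-HuR-/-* exceeded the control mean. The log2 fold change was −0.13 (SE 0.18, edgeR adjusted p of 0.776). Lipe to Pnpla2 ratios did not differ beyond their spread (difference −0.17 on the log2 scale, exact permutation p = 0.429, adjusted p = 0.75).

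MGL completes the breakdown by splitting monoacylglycerol, and its mRNA was the least variable of the 10. Mgll measured 879 CPM (A7), 1018 (A8) and 1072 (A12) under the control label, and 1109.6 (A24), 936 (A25), 1162 (A26), 925 (A29) and 1058 (A31) under the *Adipo-HuR-/-* label. The control libraries fell within or just below the range of the others. Its log2 fold change was 0.07 (SE 0.17, edgeR adjusted p of 0.874), and its 95% interval reached from a fold of 0.81 to 1.36. The Mgll to Lipe ratio differed by 0.19 on the log2 scale (exact permutation p = 0.411, adjusted p = 0.75), and it was lowest in A7.

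LPL is secreted by adipocytes and carried to the capillary surface. Lpl measured 1761 CPM (A7), 4513 (A8) and 4588 (A12) under the control label, and 2763 (A24), 1943 (A25), 2944 (A26), 2659 (A29) and 4663 (A31) under the *Adipo-HuR-/-* label. A8, A12 and A31 were high, whereas A7 and A25 were low, so each group held both kinds. Brown adipocyte markers were also lowest in A7 (7596 CPM in sum) and A25 (7623), and their part in the Lpl values was not tested. Means were 3620.4 ± 1611 (SD, n = 3) and 2994 ± 1007 (SD, n = 5), with a log2 fold change of −0.27 (SE 0.36, edgeR adjusted p of 0.748) that was −0.61 without A7 and −0.067 without A12. The 95% interval ran from a fold of 0.478 to 1.43. Profiles most like that of Lpl belonged to Ephx2, an epoxide hydrolase, Apmap, an adipocyte membrane protein, and Pla2g7, a phospholipase, at a mean distance of 0.17, 0.18 and 0.19 per library against a median of 0.49.

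LMF1 is the endoplasmic reticulum factor that LPL needs to fold into its active form. Lmf1 measured 23.0 CPM (A7), 41.5 (A8) and 22.3 (A12) under the control label, and 34.9 (A24), 30.8 (A25), 33.4 (A26), 32.8 (A29) and 29.2 (A31) under the *Adipo-HuR-/-* label. The 5 libraries labelled *Adipo-HuR-/-* sat in a narrow band (SD 2.24) between the low pair A7 and A12 and the high A8 (control SD 10.9). The log2 fold change was 0.16 (SE 0.21, edgeR adjusted p of 0.756), and 0.51 without A8. Counts of Lmf1 per Lpl differed by 0.42 on the log2 scale (exact permutation p = 0.411, adjusted p = 0.75), and by 0.030 without A12.

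ANGPTL4 switches LPL off, and its mRNA was set beside that of the enzyme. Angptl4 measured 331 CPM (A7), 72.8 (A8) and 133 (A12) under the control label, and 140.3 (A24), 147 (A25), 106 (A26), 115 (A29) and 126 (A31) under the *Adipo-HuR-/-* label. A7 was far above the rest, and A8 was the lowest. The log2 ratio of Angptl4 to Lpl was −2.41 (A7), −5.95 (A8) and −5.11 (A12) under the control label, and −4.30 (A24), −3.72 (A25), −4.79 (A26), −4.53 (A29) and −5.21 (A31) under the *Adipo-HuR-/-* label. The control libraries thus spanned the whole range, and the difference in mean was −0.02 (exact permutation p = 1, adjusted p = 1) and 1.02 without A7.

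DGAT1 and DGAT2 catalyse the last step of triglyceride synthesis and are unrelated in sequence. Dgat1 measured 129 CPM (A7), 210.1 (A8) and 163 (A12) under the control label, and 258 (A24), 178 (A25), 159.8 (A26), 188 (A29) and 222 (A31) under the *Adipo-HuR-/-* label. Dgat2 measured 639.9 CPM (A7), 1105 (A8) and 982 (A12) under the control label, and 1330.3 (A24), 815 (A25), 1503 (A26), 697 (A29) and 914 (A31) under the *Adipo-HuR-/-* label. A7 was lowest for both, A24 was high for both, and A26 was highest for Dgat2 but near the bottom for Dgat1. Log2 fold changes were 0.27 (SE 0.21, edgeR adjusted p of 0.574) for Dgat1 and 0.21 (SE 0.29, edgeR adjusted p of 0.765) for Dgat2. Without A7 they were 0.11 and 0.0097, and without A8 they were 0.47 and 0.38. Counts of Dgat2 exceeded those of Dgat1 between 3.70-fold (A29) and 9.41-fold (A26), and the log2 ratio differed by −0.09 between the groups (exact permutation p = 0.857, adjusted p = 1).

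PNPLA3 is a droplet protein related to ATGL whose transcript is known to rise with feeding and insulin. Pnpla3 measured 466 CPM (A7), 379.8 (A8) and 121 (A12) under the control label, and 131 (A24), 135 (A25), 198 (A26), 389.9 (A29) and 96.6 (A31) under the *Adipo-HuR-/-* label. A7, A8 and A29 were high and the other 5 low, so that each group held both levels. Means were 322 ± 180 (SD, n = 3) and 190.0 ± 117 (SD, n = 5), with a log2 fold change of −0.76 (SE 0.49, edgeR adjusted p of 0.471) and a 95% interval from a fold of 0.278 to 1.25. It was −0.40 without A7 and −1.21 without A29. With the skeletal muscle score as a covariate it was −0.13 (SE 0.81), and between the libraries with few muscle markers, A12 against A24, A25, A26 and A29, it was 0.82, a comparison in which A12 is assumed to vary like the other group. Skeletal muscle markers were high in A7 and A8 but low in A29, and their part in the Pnpla3 values was not tested further.

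Counts of each gene had been divided among annotated transcripts before deposition, and for Pnpla2 and Abhd5 a large share fell on transcripts annotated as targets of nonsense-mediated decay, a pathway that degrades mRNA with an early stop codon. Pnpla2-201, of this type, held between 61.9% (A25) and 78.8% (A12) of Pnpla2 counts, and the coding Pnpla2-202 between 7.94% (A12) and 23.5% (A25). The transcripts are hard to separate, since 87.7% of the bases of Pnpla2-201 lie also in Pnpla2-202, which has only 2 exonic bases of its own. The share of Pnpla2-201 was 77.8 ± 1.64% (SD, n = 3) and 72.3 ± 6.49% (SD, n = 5), and the groups overlapped. G0s2 and Pnpla3 had a single transcript each, whereas Mgll-204 held at least 94.6% and Dgat2-201 at least 99.6% of their gene's counts in every library.

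Among the 16 member transcripts that held at least 5% of their gene on average, 2 had shares that did not overlap between the groups, against 5.18% of such transcripts over all genes tested, and both belonged to Abhd5. Abhd5-201, annotated for decay, took 47.1% (A7), 50.3% (A8) and 34.9% (A12) of the gene's counts under the control label, and 63.2% (A24), 55.4% (A25), 50.4% (A26), 54.5% (A29) and 54.1% (A31) under the *Adipo-HuR-/-* label. The coding Abhd5-204 made up most of the remainder, with 50.3 ± 9.48% (SD, n = 3) and 36.7 ± 5.01% (SD, n = 5). The gap between the groups was narrow, between A8 and A26, and these shares were not tested. Abhd5-204 has 1821 bases that Abhd5-201 lacks, while 50 bases are found in Abhd5-201 alone. The antisense gene A730085K08Rik overlaps Abhd5 by 950 bases at the 3′ end, within Abhd5-204 and beyond the end of Abhd5-201. Its part in these shares was not tested.

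Lpl counts split in an uneven way that did not follow the labels. Lpl-203, annotated for decay, held 20.3% of Lpl counts in A7, 24.9% in A25 and 22.8% in A26, but only 0.0573% in A8 and 0.295% in A24. Shares in A12 (3.11%), A29 (1.59%) and A31 (5.94%) lay between. Lpl-203 has 216 exonic bases that are not in the coding Lpl-201, and 88.6% of its bases are shared with it.

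**Figure D3:**
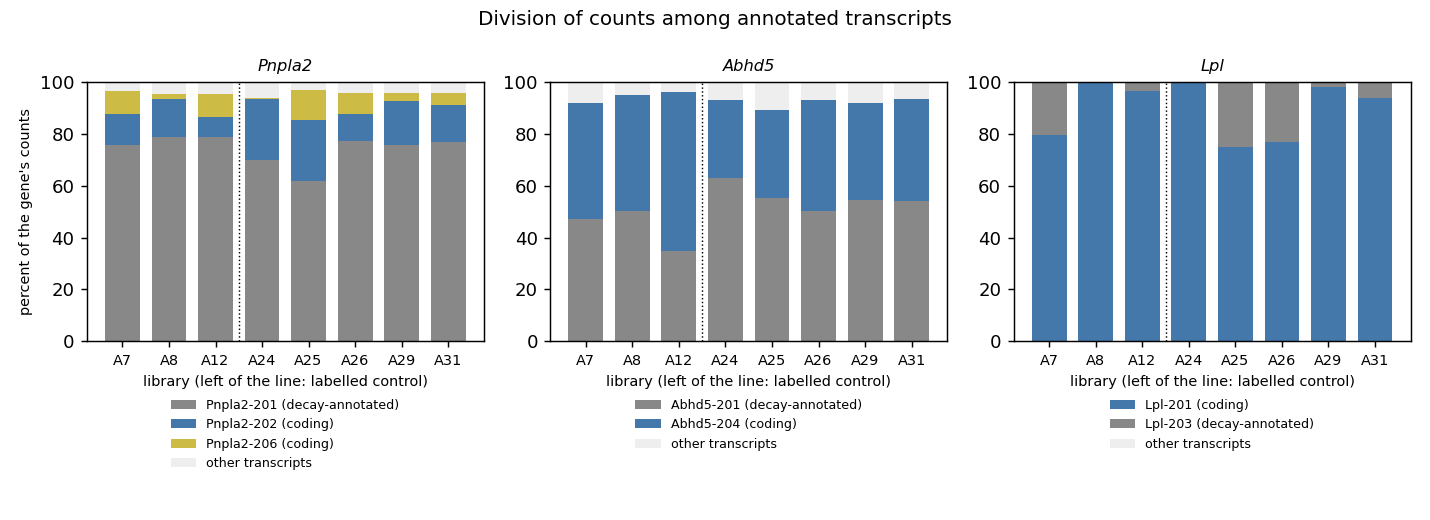
Percent of the counts of Pnpla2, Abhd5 and Lpl (vertical axes) on each annotated transcript in the 8 libraries, with the labelled control libraries left of the dotted line. Grey marks transcripts annotated for nonsense-mediated decay, blue and yellow coding ones, and pale grey the remainder. Lpl-203 is largest in A7, A25 and A26, where it holds between 20.3% and 24.9%.

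The 10 genes lie on 7 chromosomes of the GRCm38 build, 3 of them on chromosome 7: Pnpla2 at chr7:141455198-141460743 (plus strand), Lipe at chr7:25379527-25398710 (minus) and Dgat2 at chr7:99153658-99182719 (minus). Lpl is at chr8:68880491-68907448 (plus), on the chromosome of Elavl1 (chr8:4285382-4325413, minus). G0s2, at chr1:193272161-193273217 (minus), lies within the span of Lamb3 on the opposite strand, but its transcript shares no run of 31 bases with any other gene on either strand. The same held for Pnpla2, Dgat1 and Dgat2, and no such run was shared between members. For Abhd5 and Lipe, 16.6% and 12.9% of the runs also occur in other genes, mostly the antisense genes A730085K08Rik and 4732471J01Rik, from which their reads cannot be told apart without strand.

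HuR is known to bind AU-rich RNA, so AU-rich motifs were counted in the annotated 3′ UTR of the most abundant coding transcript of each gene. The pentamer ATTTA was present in 6 of 10 members, beside 65.9% of the 14059 genes tested that have such a UTR. Abhd5 had 7 copies, Lpl 5, Dgat2 and Mgll 2 each, and Pnpla2 and Lipe 1 each, while G0s2, Lmf1, Dgat1 and Pnpla3, all with UTRs of at most 302 bases, had 0. The nonamer TTATTTATT, the longer form of the element, was found in 2 of 10 members, Pnpla2 and Lpl, beside 7.39% of genes. These sites are shown because they are the fullest AU-rich elements in the family (25 bases each, GENCODE M21 transcripts, nonamer in capitals), in Pnpla2-202 at chr7:141460036-141460060 and in Lpl-201 at chr8:68906673-68906697, both on the plus strand.
Pnpla2: gtgaagaaTTATTTATTtttgccaa
Lpl: ctttcaatTTATTTATTagctgtaa
The site in Pnpla2 also lies in an exon of Pnpla2-201, whereas Lpl-203 does not contain the Lpl site. Neither gene was called between the labelled groups, and a match of letters does not show binding.

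Other genes of the same pathways were taken from 4 lists, and 0 genes of any of them were called in edgeR. At an unadjusted p under 0.05 there were 0 higher and 1 lower for intracellular lipolysis, 2 and 1 around LPL, 1 and 3 for triglyceride synthesis, and 0 and 1 for regulators of lipolysis, beside 17.0% of all genes in either direction. Of 23 further genes of intracellular lipolysis, all tested, 11 were higher and 12 lower in mean in the libraries labelled *Adipo-HuR-/-*, with a median log2 fold change of −0.11. Plin4, a droplet coat protein (0.53), and Aqp7, the glycerol channel (0.35), had the largest positive values, and Abhd4 (−0.57) and Abhd6 (−0.40), relatives of Abhd5, the largest negative ones. Abhd4 was the gene of this list whose groups did not overlap, at 111, 131 and 117 CPM in A7, A8 and A12 and at 81.0, 63.2, 90.9, 81.1 and 85.9 CPM in A24, A25, A26, A29 and A31. Its adjusted p in edgeR was 0.1001, the smallest of the list.

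Around LPL, 18 of 20 listed genes were tested, with a median log2 fold change of 0.05. For 3 of these 18 the groups lay apart, beside 11.5% of all genes tested, so the list is near the share of all genes. Gpihbp1, which carries LPL across the capillary endothelium, measured 55.1 CPM (A7), 58.8 (A8) and 61.2 (A12) under the control label, and 73.3 (A24), 78.8 (A25), 79.8 (A26), 67.8 (A29) and 63.0 (A31) under the *Adipo-HuR-/-* label. All 5 libraries labelled *Adipo-HuR-/-* were above the controls, A31 by little, and the log2 fold change was 0.31 (SE 0.14, edgeR adjusted p of 0.283). Lipg, the endothelial lipase, was also higher in all 5 (0.97, SE 0.40, edgeR adjusted p of 0.250), from a mean of 5.52 ± 2.94 CPM (SD, n = 3) to 10.8 ± 3.37 (SD, n = 5). Markers of endothelium, 7 genes led by Cdh5, summed to 442, 379.9 and 479 CPM in A7, A8 and A12 and to 367, 462, 533, 579.7 and 542 in A24, A25, A26, A29 and A31. The endothelial sums overlapped between the groups, and their part in the values of Gpihbp1 and Lipg was not tested. Apoc3 had the largest positive log2 fold change of the list (1.22, edgeR adjusted p of 0.331) and was scarce.

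Genes of triglyceride synthesis (23 tested) had a median log2 fold change of −0.14, and the groups overlapped for all 23. Agpat1 (0.50, edgeR adjusted p of 0.171) and Lpin3 (0.46) had the largest positive values, and Acsl3 (−0.68, edgeR adjusted p of 0.131), an acyl-CoA synthetase, was among the lowest. Fitm1, a lipid droplet protein of skeletal muscle, was counted at 2.36 CPM in A7, 2.41 in A8 and 0.333 in A31 and at 0 in the other 5 libraries. These 3 libraries are those with skeletal muscle markers. Among 13 regulators of lipolysis the median was −0.15 and the groups overlapped for all, with Adrb1 (0.50) and Prkaca (0.17) at the upper end and Egr1 (−1.03) and Ppara (−0.73) at the lower. Egr1 and Ppara were highest in A7, at 46.3 and 237 CPM, the library with the least G0s2 and the most Angptl4. The negative value of Egr1 rests on A7 alone, since A8 (1.65 CPM) and A12 (1.90) lay below all 5 libraries of the other label, which ran from 3.24 (A31) to 13.3 CPM (A24). Ppara was at 31.2 CPM in A8 and 144 in A12, and at between 42.5 (A24) and 147 CPM (A26) in the other group.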

How the data were processed

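For every library the authors deposited estimated counts of transcripts, not normalized and not always whole. Read mapping was done in CLC Genomics Workbench 20.0.2 per the study's methods; the program that wrote the estimates and its use of strand are not given in the sources used here. Transcript counts were summed per gene symbol, rounded, filtered with filterByExpr and scaled by TMM, and 14851 genes were tested in R 4.3.3 with edgeR 4.0.16 (quasi-likelihood F-test, Benjamini-Hochberg adjustment), a procedure tested on simulated data. An SE is the size of the log2 fold change over the square root of F. DESeq2 1.42.0 and limma 3.58.1 gave alternatives. Totals between 17558090 and 67498055 counts set the depth. Ratios used a pseudocount of 0.5 and an exact permutation test over 56 divisions of all 8 libraries. Each library has its own number in the labels, taken here as an animal. The study's text gives group sizes the other way round, and the labels were followed. It reports most changed genes, and nearly all of its calcium transport genes, as decreased in *Adipo-HuR-/-* mice. Under that label 69 of 105 calls were lower with TMM but 25 of 121 with total counts only, and the 2 muscle markers called were lower. These values come from the same libraries and do not check genotype. Annotation was GENCODE M21; 103635 of 105129 transcript identifiers matched it without their version. Promoter sequences were not used here.

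Members, gene lists, ratios and the rule for named genes were chosen with earlier results of these data known. Named are the members, Elavl1, ratio partners, the extremes of each pathway list, marker lists and nearest profiles (mean CPM of at least 10); Gpihbp1 is named because its groups did not overlap. Remaining steps used matplotlib 3.10.9, scipy 1.17.1, pandas 2.3.3 and numpy 2.4.6 in Python 3.11.15. Alternatives were other scalings, tests, filters and thresholds, the top transcript per gene, a muscle score covariate, and sets of libraries left out.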

Additional observations from a re-analysis of the deposited data

Results flagged for a closer look

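In library A24, labelled *Adipo-HuR-/-*, the division of counts among transcripts stood apart from the other 4 libraries of its group for 3 genes. Lipe-202 held 89.2% of Lipe counts in A24, against 75.6% to 79.1% in the others and up to 83.5% (A8) in the control libraries, and Lipe-208 held 5.99%, against 13.3% to 15.9% and down to 11.004% (A8). Dgat1-203, annotated with a retained intron, held 13.7% of Dgat1 counts, against 3.91% to 6.07%, but it held 10.1% in the control library A8. For Dgat2-201 the share was 99.9%, against 99.6% to 99.7%, a difference of a fraction of a percent, and the control libraries lay next to A24, from 99.8% (A12) to 99.9% (A7). These are 4 of 33 groups of values examined in this way, in which chance alone sets about 1 in 20 apart, and shares within a gene are not independent. A24 is also among the shallowest libraries, with 18264754 counts. The shallowest, A25 (17558090), held 75.6% for Lipe-202, 15.3% for Lipe-208, 5.72% for Dgat1-203 and 99.6% for Dgat2-201. The part of depth in these shares was not tested. Gene sums of Lipe, Dgat1 and Dgat2 in A24 did not stand apart.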

How the results depend on the processing

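None of the 10 members was called under any alternative run. Of 180 recomputed log2 fold changes of members, 165 kept their sign and 15 changed it; G0s2, Dgat1 and Dgat2 were higher in mean throughout. With total counts only, which moved the median of all genes by 0.23, values were 0.089 for Lipe, 0.14 for Abhd5 and 0.00081 for Lpl; relative to that shift Lipe was at −0.14, Abhd5 at −0.092, Lpl at −0.23 and G0s2 at 0.92, so the changes of sign follow a shift of all genes alike. With the top transcript in place of the gene sum, Pnpla2 was at −0.063 and Abhd5 at 0.27, and the differences in log2 ratio were 0.36 for Abhd5/Pnpla2 and 0.073 for Angptl4/Lpl. With A12 against A24, A25, A26 and A29, a design with a lone control, values were 0.82 for Pnpla3, −0.83 for Lpl, 0.10 for Lipe and −0.054 for Mgll, and the ratio differences −0.16 for Mgll/Lipe, 1.41 for Lmf1/Lpl and 0.77 for Angptl4/Lpl.

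Leaving out each library in turn gave log2 fold changes from −0.051 (without A7) to 0.21 (A8) for Pnpla2, −0.21 (A12) to 0.011 (A7) for Lipe, −0.011 (A7) to 0.13 (A12) for Mgll, −0.36 (A7) to 0.15 (A12) for Abhd5, −0.61 (A7) to −0.067 (A12) for Lpl and −0.00055 (A12) to 0.51 (A8) for Lmf1. Ratio differences ran from 0.48 (A7) to 1.55 (A8) for G0s2/Pnpla2, −0.32 (A7) to 0.19 (A12) for Abhd5/Pnpla2, −0.35 (A8) to 0.051 (A7) for Lipe/Pnpla2, −0.020 (A7) to 0.34 (A12) for Mgll/Lipe, 0.030 (A12) to 0.74 (A7) for Lmf1/Lpl, −0.75 (A8) to 1.02 (A7) for Angptl4/Lpl and −0.31 (A26) to 0.027 (A29) for Dgat2/Dgat1. The cause of these changes was not tested.

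The number of genes called, 105 in all, was 828 with DESeq2's Wald test, which was given 22004 genes with no filter for low counts (137 in edgeR with no filter), 16 with the top transcript, 15 with the muscle score, 5 without A24 and A25, 4 with A12 against A24, A25, A26 and A29, 469 at an adjusted p of at most 0.1, and between 10 (without A26) and 190 (without A12) with a library left out. The pathway lists were counted again only with no limit on the fold change and at an adjusted p of at most 0.1, with 0 genes called in both. No paired analysis was possible because the groups share no replicate numbers. All members had at least 619 counts in every library, and with 3 control libraries the exact permutation p could not go below 0.0179.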
